A study of Mus musculus with 8 samples.

Results

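The clustered protocadherins described here are the 59 gene names of the count table that begin with Pcdha, Pcdhb or Pcdhg, out of 23335 gene names in all. They comprise 15 alpha, 22 beta and 22 gamma members, and each is represented by 1 transcript row, so a gene's sum over rows is its row. All members lie on the plus strand of mouse chromosome 18, between positions 37089939 and 38001526 of mm9.

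Clustered protocadherins are cadherin-related proteins of the neuronal surface that bind copies of themselves on neighboring membranes and are known for letting a neuron tell its own branches from those of other cells. In the alpha and gamma clusters each variable exon has its own promoter and is spliced to constant exons shared by the whole cluster, whereas every beta gene is a single exon of its own. Neurons choose most of these promoters at random and in combination, while the C-type exons at the far end of the alpha and gamma clusters are used more evenly.

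Messenger RNA was counted in single interneurons picked by hand from the frontal cortex of 4 female wild-type mice, in 8 library batches of 16 cells. The ChC group (chandelier cells) came from Nkx2.1-CreER; Ai14 mice, in which tamoxifen (150 µl at 20 mg/ml, given before birth) switches on a red fluorescent protein in cells where the Nkx2-1 promoter is active, with batches 1 and 2 from animal 1 at postnatal day 31 and batches 3 and 4 from animal 2 at postnatal day 32. The Pv group (parvalbumin-positive basket cells) came from Pv-ires-Cre; Ai14 mice, in which the parvalbumin gene drives Cre, with batches 5 and 6 from animal 3 at postnatal day 29 and batches 7 and 8 from animal 4 at postnatal day 35. The treatment label of the Pv samples names the same tamoxifen induction of the Nkx2.1-CreER line, and no other treatment is named for either group. Cell type, mouse line and flow cell coincide and cannot be told apart. Within each group, animal and sequencing lane (1 or 2) coincide as well.

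After 2 empty columns (1 in each group) were set aside, 126 cells remained, 63 ChC and 63 Pv, and no cell name occurred in more than 1 batch. The ChC batches held 448121, 556405, 2460679 and 1123083 molecules (UMI, reads with the same gene and tag counted once), and the Pv batches held 392580, 430860, 316540 and 797177. Levels are given as CPM (UMI per 1000000 UMI of the batch or cell). A batch with no UMI of a gene thereby allows up to 1.22 CPM in batch 3, the deepest, and up to 9.48 in batch 7, the shallowest (3 counts of the batch total). These limits and the 95% exact Poisson intervals given below cover counting error only.

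Markers of inhibitory neurons were present in all 8 batches. Slc32a1, the vesicular GABA transporter, lay between 1270 and 3294 CPM, and Gad1, a GABA-synthesizing enzyme, between 643 and 2739. Pvalb reached 86.4 to 196 CPM in the ChC batches and 670 to 1643 in the Pv batches, so the groups did not overlap. Nkx2-1 lay between 58.02 and 78.4 in the ChC batches and between 23.8 and 81.5 in the Pv batches, which overlapped. Of the 4 pyramidal markers 2 had a UMI, and their sum reached 392 CPM in batch 7 against a median of 22.05 over batches, with Slc17a7 the most abundant and Neurod6 and Tbr1 at 0. Of the 5 astrocyte markers 4 had a UMI, led by Slc1a3 with Gfap at 0, and their sum ranged from 6.96 in batch 6 to 309.9 in batch 4. Of the 4 oligodendrocyte markers 3 had a UMI, led by Mbp with Mobp at 0, and their sum ranged from 2.32 in batch 6 to 108 in batch 4. All 3 sums were lowest in batch 6, so transcripts of other cell types differed by batch. Rgs5 and Pdgfrb, which mark pericytes, had UMI in batches 7 and 8 alone, summing to 101 and 120.4 CPM, while the microglial sum was highest in batch 4 at 40.1 and the endothelial sum stayed at or under 22.1 in every batch, with C1qa and Cldn5 at 0. The precursor markers Pdgfra and Cspg4 summed to at most 17.6, with Cspg4 at 0. Other interneuron markers, led by Cck with Vip at 0, summed to between 58.02 CPM in batch 1 and 1246 in batch 4. The part of these transcripts in the results below was not tested.

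A measurement on the whole table bears on every single-cell value that follows. For each gene with at least 100 UMI in a batch, its counts were compared with a division among the cells of that batch in proportion to their totals, as a chi-square over its degrees of freedom, so that 1 is the spread that counting alone gives. Over 15192 pairs of gene and batch the median was 1.04, with 5% and 95% points of 0.519 and 2.06, and 1.27% exceeded 3. The largest value was 109, for Sash1 in batch 4 with 5131 UMI, so spread beyond counting was measurable in a gene that abundant. It does not show that the same spread would be seen in genes with few UMI. Markers of the labelled cells had a median of 1.14 over 37 pairs (highest 2.90). Other interneuron markers had a median of 1.62 over 7 pairs (highest 4.22) and astrocyte markers 1.75 over 2 pairs. Oligodendrocyte and pyramidal markers had 1 pair each, at 0.767 and 0.866. Between the 8 batches the same measure had a median of 24.1 over 13742 genes, and between the 2 batches of a single animal its median lay between 8.80 and 18.5. The cells of a batch thus differed in most of these genes by little more than counting error at their depth. Batches of the same animal differed in most genes by more than counting error at theirs. The measure grows with UMI and a batch holds more UMI than a cell, so its sizes within and between batches cannot be compared. Isoforms held by a cell are therefore reported as what each cell column contains, beside what its batch contains as a whole. What makes the cells of a batch so alike was not tested, nor was whether each column holds molecules of 1 cell alone.

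The alpha and gamma rows were nested rather than separate. With Pcdha4-g left out, every row along each cluster held at least as many UMI as the row starting next to it, with 0 exceptions in 1638 comparisons of neighboring alpha rows within cells and 0 in 2646 comparisons of neighboring gamma rows. The alpha rows fell from 3214 UMI for Pcdha1, which starts first, to 2893 for Pcdhac2, which starts last, and the gamma rows fell from 1344 UMI for Pcdhga1 to 843 for Pcdhgc5. A row therefore behaved as a count of all tags between its start and the 3′ end shared by the cluster, introns and constant exons included, and 90.01% of the Pcdha1 count and 62.7% of the Pcdhga1 count recurred in the last row of the cluster. In the average cell with a UMI of the cluster, 79.7% of the 15 alpha rows and 78.8% of the 22 gamma rows carried one and the same count. The rows that departed from the shared count most often were Pcdha4-g (91.9% of 123 cells), Pcdhac2 (65.9%) and Pcdhac1 (56.1%) among alpha rows, and Pcdhgc5 (60.3% of 116 cells), Pcdhgc4 (52.6%) and Pcdhgc3 (52.6%) among gamma rows. The Pcdha4-g row runs from 37112395 to 37999854 and so spans the beta cluster and most of the gamma cluster. Its 5089 UMI were at least the sum of the Pcdha4 row and all beta rows in 125 of 126 cells. Among rows that overlap on opposite strands and hold at least 100 UMI each, 6 of 662 pairs were equal in all 126 cells, including Rell2 and Fchsd1 at the far side of the locus. Whether a member row includes tags of an antisense neighbor was not settled.

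**Figure D1:**
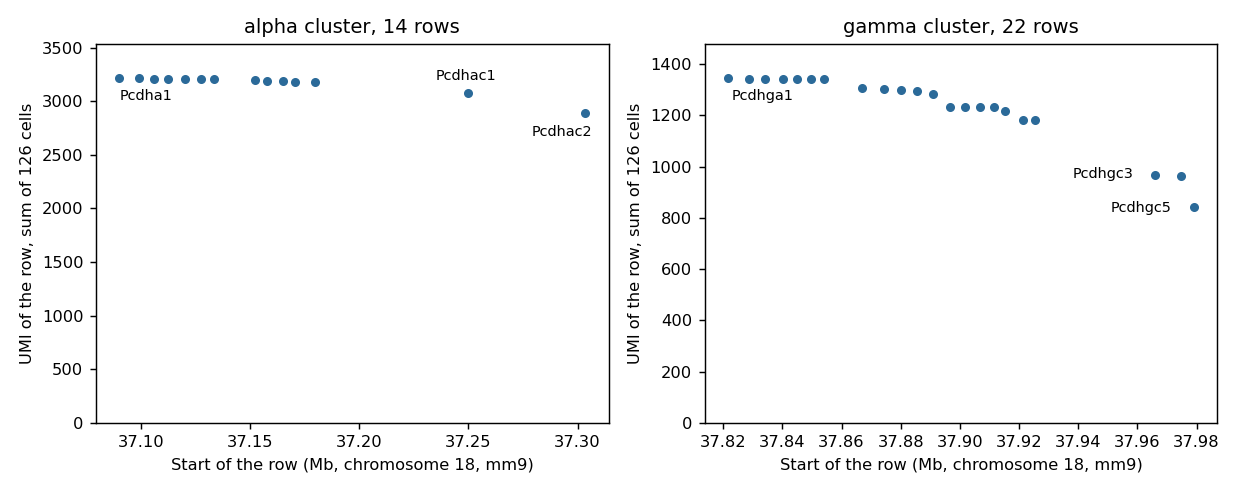
UMI of each alpha row (left, 14 rows, without Pcdha4-g) and gamma row (right, 22 rows), summed over 126 cells, against the start of the row on chromosome 18. Each point is 1 row, and the counts never rise along a cluster, from 3214 to 2893 UMI in alpha and from 1344 to 843 in gamma.

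The beta genes, whose rows do not overlap each other, held 640 UMI in all. A UMI was found for 13 of the 22 genes, while Pcdhb1, Pcdhb2, Pcdhb4, Pcdhb6, Pcdhb8, Pcdhb10, Pcdhb16, Pcdhb19 and Pcdhb21 were at 0 in all 126 cells, which allows each up to 0.460 CPM. Of the 13 genes, 6 had UMI in 1 batch, 3 in 2 batches, 3 in 3 batches and 1 in 4 batches. For comparison, 30% of the 10 beta genes with 10 to 148 UMI in all were confined to 1 batch, against 4.54% of the 6262 gene names in the same range, which is a description and not a test.

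Pcdhb14 had the highest level of the beta genes, both as its mean over batches (41.3 CPM) and per length (12.01 CPM per kb of row). It held 148 UMI, all of them in ChC batch 1, at 330.3 CPM (95% interval 279 to 388), and 0 in the other 7 batches. Batch 2, from the same animal, allows up to 5.39 CPM, far under the interval of batch 1, so the batches differed beyond counting error. Within batch 1 all 16 cells held Pcdhb14, from 1 to 37 UMI each, where allocation in proportion to cell totals gives 14.5 cells.

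Pcdhb7 came next, with a mean of 18.7 CPM over batches and 5.35 CPM per kb. Its level was 118 in Pv batch 6 (51 UMI in 12 of 15 cells), 20.3 in ChC batch 3 (50 UMI in 11 of 16 cells) and 11.3 in Pv batch 8 (9 UMI in 5 of 16 cells), with 0 in batches 1, 2, 4, 5 and 7. The groups overlapped, and batch 5, from the same animal as batch 6, allows up to 7.64 CPM.

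Pcdhb12, next by mean over batches (6.04 CPM and 1.99 CPM per kb), lay at 16.3 in ChC batch 3 (40 UMI), 9.48 in Pv batch 7 (3 UMI) and 22.6 in Pv batch 8 (18 UMI). Pooled over all cells, Pcdhb17 stood higher, at 16.4 CPM against 9.35 for Pcdhb12. Pcdhb9, at a mean of 5.64, was found in both batches of ChC animal 2 alone, at 7.72 in batch 3 (19 UMI) and 37.4 in batch 4 (42 UMI), whose intervals of 4.65 to 12.1 and 26.95 to 50.55 did not overlap. Pcdhb17, at a mean of 5.44, had 107 UMI, all in batch 3, at 43.5 CPM, and 0 in batch 4, which allows up to 2.67. Both batches of animal 2 thus held many beta UMI but different leading genes.

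Among the lowest nonzero genes, Pcdhb15 had 2 UMI and Pcdhb11 had 3 UMI, all in Pv batch 7, and Pcdhb5 had 8 UMI, all in ChC batch 4. Of the other 5 detected genes, Pcdhb13 had 31 UMI in batch 4 alone, Pcdhb3 (28 UMI) and Pcdhb22 (43 UMI) were found in batches 3 and 4, and Pcdhb18 had 22 of its 28 UMI in batch 8. Pcdhb20 was found in the most batches, 4, but with only 10 UMI. Altogether 7 beta genes had UMI in ChC batches and in no Pv batch, 2 in Pv batches and in no ChC batch, and 4 in both, and with so few UMI in most batches these counts do not show that a gene is absent from a group.

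**Figure D2:**
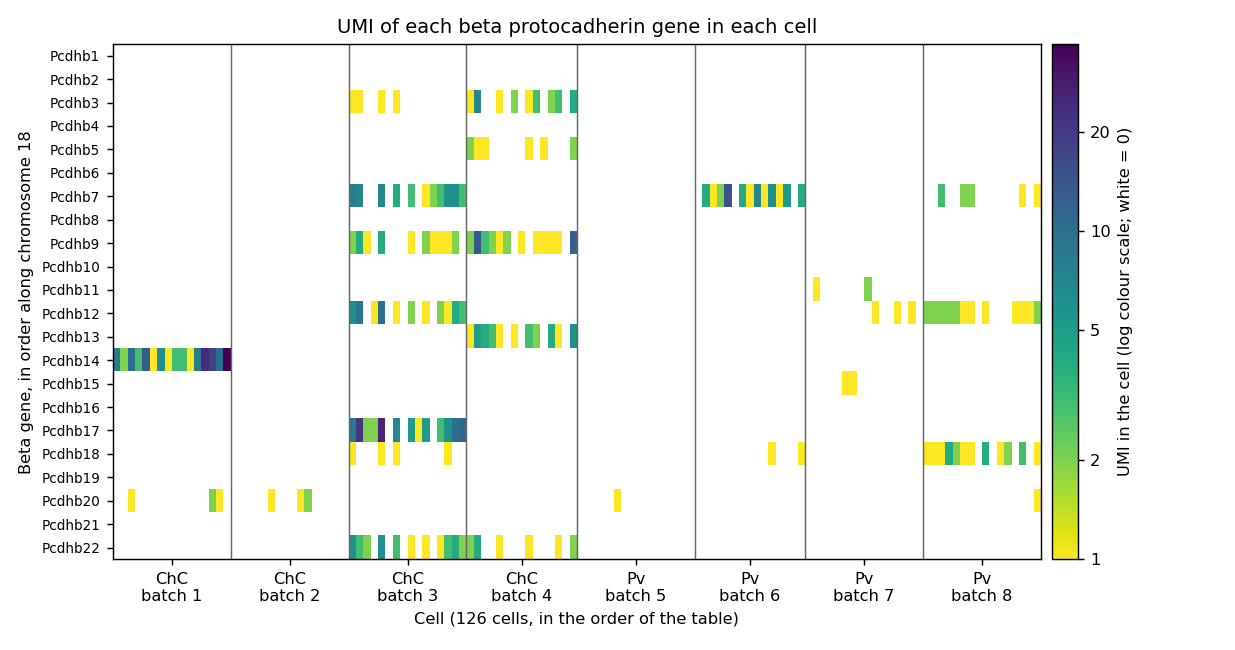
UMI of each of the 22 beta genes (rows, in order along chromosome 18) in each of the 126 cells (columns, by library batch, 63 ChC and 63 Pv), on a logarithmic color scale with 0 in white. Colored cells line up by batch: Pcdhb14 fills all 16 cells of batch 1 and Pcdhb17 13 of 16 cells of batch 3, and both are at 0 in every other batch.

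Within a batch, beta UMI followed the cell totals. For the 13 pairs of beta gene and batch with at least 10 UMI, the chi-square per degree of freedom ranged from 0.558 (Pcdhb22 in batch 4) to 1.34 (Pcdhb9 in batch 4), with a median of 0.774, against 0.994 over all 53353 pairs of gene and batch at that minimum. At 100 UMI or more only Pcdhb14 in batch 1 (0.774) and Pcdhb17 in batch 3 (0.703) remained, with a negative excess variance in both. Between the 2 batches of an animal the beta value was 184 in animal 1 (Pcdhb14), 38.5 in animal 2 (median of 7 genes, lowest 0.662), 46.5 in animal 3 (1 gene) and 5.40 in animal 4 (median of 2 genes), against medians over all genes of 14.3, 18.5, 17.6 and 8.80. Over the 8 batches the beta median was 17.1 against 24.1 for all genes. This measure grows with the UMI of a gene and the genes were not matched for UMI, so it does not rank beta genes against others. Below that minimum the highest value was 1.71, for Pcdhb7 in batch 8 with 9 UMI. Which beta genes a cell holds therefore cannot be told apart, at this depth, from a draw out of the UMI of its batch.

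The reach of the rows differed between detected and undetected beta genes. The 9 rows at 0 UMI extended a median of 239 bases past the coding sequence of the mm9 annotation (GENCODE), with 3 rows ending at its last base, whereas the rows with UMI extended a median of 883 bases past it. Only 3 of the 9 undetected rows, Pcdhb4, Pcdhb16 and Pcdhb19, ended 300 bases or more past the coding sequence, against 11 of the 13 detected ones, while Pcdhb20 has no annotated coding sequence there. The motifs AATAAA or ATTAAA (on the plus strand) occurred in the last 50 bases of 4 of the 9 undetected and 9 of the 13 detected rows, against 70.9% of 657 row ends on chromosome 18 (motifs on the strand of the row). Against the annotated 3′ end, however, 6 of the 9 undetected rows ended within 2 bases of it, and only Pcdhb6, Pcdhb19 and Pcdhb21 ended short of it, by 1087, 2416 and 1950 bases. The part of row ends in the 9 values of 0 was not tested. Repeats within the locus were few: at least 96.45% of the 50-base words in the last 500 bases of each beta row occurred once in the locus, counting both strands.

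By column, 45 of 126 cells (35.7%) held no beta gene, 41 held 1, 15 held 2, and 25 held 3 or more, up to 7 in 2 cells of ChC batch 3. Among ChC cells 16 of 63 held none and among Pv cells 29 of 63, and no Pv cell held more than 4. These counts differed by batch. The median cell of batch 3, with 93419 UMI per cell, held 5 beta genes of the 7 in its batch, the median cell of batch 4 held 3 of 5, and the median cell of batch 8 held 2 of 4. Batch 1 had a median of 1 gene of 2 and batch 6 a median of 1 of 2. In batches 2, 5 and 7 the median cell held none, although batch 2 at 30281 UMI per cell was deeper than batch 1 at 24089. The deepest cell, ChC-34 with 515374 UMI, held 45 beta UMI from 6 genes, 21 of them from Pcdhb17.

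To set depth aside, the number of beta genes expected in 10000 UMI was computed for the 103 cells that had them (23 cells, 15 ChC and 8 Pv, were left out). It was 1.06, 0.0585, 1.00 and 0.874 genes per cell in ChC batches 1 to 4 and 0.0309, 0.694, 0.256 and 0.557 in Pv batches 5 to 8. The 2 batches of animal 1 and those of animal 3 lay far apart, those of animals 2 and 4 less so, and the groups overlapped. Averaged per animal it was 0.608 and 0.937 in ChC and 0.337 and 0.422 in Pv, a difference of 0.393 genes (two-sided exact permutation test over 2 against 2 animals, p = 0.333, the smallest p this design allows). Without thinning, the difference was 1.27 genes (exact permutation p = 0.667). At 10000 UMI and without batch 1 the difference was 0.118.

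A cell's beta UMI were dominated by 1 gene or shared among several, depending on the batch. Of the cells with at least 10 beta UMI, the leading gene took on average 95.3% in batch 1 (6 cells), 41.3% in batch 3 (10 cells) and 46.7% in batch 4 (2 cells), and 100% in the single such cell of Pv batch 6. The difference between the groups was -31.3 percentage points, but no cell of Pv animal 4 reached 10 beta UMI, so it rests on 1 Pv cell and has no test, and without batch 1 it was -57.8. At 5 beta UMI or more the animals averaged 96.9% and 44.4% in ChC and 93.1% and 59.3% in Pv, a difference of -5.60 percentage points (exact permutation p = 1). The batches with a high share held essentially 1 beta gene: Pcdhb14 made up 97.4% of the beta UMI of batch 1 and Pcdhb7 96.2% of those of batch 6. A batch is the sum of its cells, so these values restate the shares of the cells and do not explain them.

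Overlap of beta gene sets between cells was measured by the Jaccard index (genes shared over genes held by either cell), leaving out pairs in which neither cell held one. With all UMI it averaged 0.442 over 706 pairs of cells of the same batch, 0.0597 over 927 pairs from different batches of the same animal, 0.0159 over 1747 pairs from different animals of the same group, and 0.0232 over 3505 pairs from different groups. At 10000 UMI per cell the same 4 values were 0.293, 0.0253, 0.00335 and 0.0175. The higher average within batches came from some batches and not others: with all UMI it was 0.838, 0.0714, 0.422 and 0.422 in ChC batches 1 to 4 and 0, 0.549, 0.0595 and 0.447 in Pv batches 5 to 8, so batches 2, 5 and 7 were not clearly above pairs from different batches of an animal. Pairs of cells are not independent, so no test was made over them. Within batches the index at 10000 UMI averaged 0.418 and 0.0925 in the ChC animals and 0.571 and 0.104 in the Pv animals, a difference of -0.0825 (exact permutation p = 0.667). Pv batch 5 gave no pair. The sign turned in 5 of 13 alternatives, for example to 0.286 at 5000 UMI, so no direction is given. Of the beta genes held by whole batches, batches 1 and 2 shared 1 (of 2 and 1), batches 3 and 4 shared 3 (of 7 and 5), batches 5 and 6 shared 0 (of 1 and 2) and batches 7 and 8 shared 1 (of 3 and 4). Batches 2 and 5, of different groups, held the same single gene, Pcdhb20, but with only 4 UMI in batch 2 and 1 UMI in batch 5.

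Because the alpha and gamma rows are nested, the difference between a row and the next gives the tags between their starts, that is, in a variable exon and the intron that follows it. Of the 13 alpha intervals 7 had a UMI, 9.99% of the cluster's UMI in all, and of the 21 gamma intervals 14 had one, 37.3% of the total. The rest lay downstream of the last start, where Pcdhac2 or Pcdhgc5 and the constant exons cannot be told apart.

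In the alpha cluster, 2 intervals carried most of these tags. The Pcdhac1 interval (37249790 to 37303622), which belongs to a C-type exon, held 185 UMI, at 79.1, 25.6 and 65.0 CPM in ChC batches 2, 3 and 4 and 15.8 in Pv batch 7. It was at 0 in ChC batch 1 and Pv batches 5, 6 and 8. Batch 1 allows up to 6.69 CPM, under the intervals of ChC batches 2 to 4 (lowest end 19.7), so this exon region too differed by batch. The value of Pv batch 7 rests on 5 UMI (interval 5.13 to 36.9), which overlaps the limits of batches 5 and 6 (7.64 and 6.96). It lies above the limit of batch 8 (3.76), which is from the same animal as batch 7. The Pcdha12 interval, which covers the 69906 bases up to the start of Pcdhac1, held 107 UMI and was the only alpha interval before Pcdhac2 with UMI in all 8 batches, from 6.23 CPM in batch 4 to 50.55 in batch 7. The Pcdha7 interval held 17 UMI in 5 batches, and the Pcdha2, Pcdha5, Pcdha8 and Pcdha10 intervals held between 1 and 5 UMI, each in 1 batch.

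In the gamma cluster the Pcdhga12 interval held 214 UMI in 7 batches, at 33.5, 17.97, 48.8 and 51.6 CPM in ChC batches 1 to 4 and 0, 9.28, 15.8 and 2.51 in Pv batches 5 to 8, so that all ChC batches lay above all Pv batches. This interval was singled out after its values were seen, and it was not tested. The Pcdhgc4 interval, another C-type exon, held 122 UMI, at 40.6 CPM in ChC batch 3, 56.9 in Pv batch 7 and 5.02 in Pv batch 8, and was at 0 in the other 5 batches. The Pcdhgc3 interval held 3 UMI, all in 1 batch. Pcdhgb5 had 48 UMI, all in batch 4, Pcdhga8 had 13, all in batch 3, Pcdhgb7 had 15 of its 16 in batch 6, and Pcdhga5 had 23 of its 35 in batch 1. Pcdhga11 was spread over 5 batches with 35 UMI. The other 6 gamma intervals with a UMI (Pcdhga1, Pcdhga2, Pcdhga6, Pcdhga7, Pcdhgb4 and Pcdhgb6) held between 1 and 6 UMI each. Over the 18 pairs of interval and batch with at least 10 UMI the chi-square per degree of freedom within batches had a median of 1.06, and it was highest, at 6.68, for the Pcdha12 interval in batch 6.

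The alpha cluster, by the highest row of a cell other than Pcdha4-g, averaged 458, 450.4, 396 and 418 CPM over the cells of ChC batches 1 to 4 and 671, 552, 436 and 777 over those of Pv batches 5 to 8. Batch 7 overlapped with the ChC batches and the other Pv batches lay above them. Per animal this was 454 and 407 in ChC against 613 and 606 in Pv, a difference of -179 (exact permutation test over 2 against 2 animals, p = 0.333, the smallest possible; over 4 against 4 batches, exact p = 0.0857). Batches 7 and 8 of Pv animal 4 lay far apart, at 436 and 777, and this difference was not recomputed with 1 batch left out. Pcdha4-g was left out of the alpha level after its span was seen. With it, the highest row also counts beta and gamma tags, and the difference was 32.97 CPM, with ChC at 833 and 776 and Pv at 738 and 804 (exact permutation p = 0.667).

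The gamma cluster averaged 181, 229.5, 271 and 216 CPM in ChC batches 1 to 4 and 110.1, 142, 285 and 85.0 in Pv batches 5 to 8. Pv batches 5, 6 and 8 lay below all ChC batches and batch 7 lay above them. Per animal the means were 205 and 244 in ChC and 126 and 185 in Pv, a difference of 69.4 (exact permutation p = 0.333). It was 19.3 without batch 8 (exact permutation p = 1) and 119.5 without batch 7.

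Summed beta UMI averaged 383, 3.35, 98.8 and 92.7 CPM in ChC batches 1 to 4 and 2.71, 102, 21.2 and 60.9 in Pv batches 5 to 8. The ranges of the groups overlapped. Per animal the values were 193 and 95.9 in ChC and 50.5 and 41.02 in Pv, a difference of 98.8 (exact permutation p = 0.333), which was 3.84 without batch 1.

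**Figure D3:**
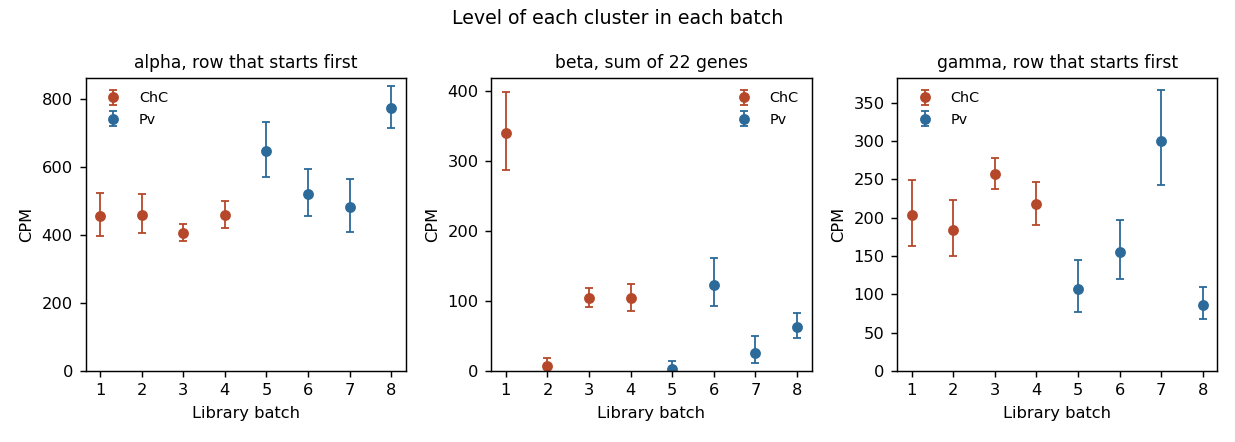
CPM of the alpha cluster (row that starts first), the beta cluster (sum of 22 genes) and the gamma cluster (row that starts first) in each library batch, as the summed UMI of the batch over its total, with 95% exact Poisson intervals. Beta ranges from 2.55 in batch 5 to 339 in batch 1, while alpha stays between 405 and 773 and gamma between 86.6 and 300.1.

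Across all genes, edgeR's quasi-likelihood test on UMI summed per animal called 0 of 9681 genes between ChC and Pv (0% at an adjusted p under 0.05), and 0 of the 39 members tested. At an unadjusted p under 0.05 it gave 618 genes (6.38%) and 0 members, and DESeq2 called 158 genes and 0 members. The 20 members that did not pass the filter on low counts were all beta genes, 9 of them at 0, which left Pcdhb7 and Pcdhb12 as the only beta genes tested. Pcdhb7 had a log2 fold change (ChC over Pv) of -2.34 ± 1.94 (SE) and Pcdhb12 of -0.60 ± 2.00, with adjusted p of 0.964 and 0.999 (edgeR). With 1 animal left out, Pcdhb7 ranged from -8.19 (without animal 2) to -0.02 (without animal 3) and Pcdhb12 from -6.11 to 6.38 (without animal 4), so neither value is stable. Pcdhac2 had -0.59 ± 0.54 (adjusted p = 0.974) and Pcdhgc5 had 0.33 ± 0.87 (adjusted p = 0.997) in the same edgeR fit. Of the 15 alpha rows 14 had a fold change below 0 and all 22 gamma rows had one above 0, with medians of -0.48 and 0.60 against 0.05 over all genes tested. These rows share most of their counts, so they amount to about 1 value per cluster. In the fit without animal 2, Pcdhb14 had a fitted log2 fold change of 10.3 (edgeR). Batch 1 supplies all of its UMI and Pv has 0, so this is not a measured ratio.

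Genes known to act on promoter choice and chromatin at the locus were measured alongside. Of 20 listed, 19 were in the table and 17 tested, and 0 passed in either direction, with a median log2 fold change of 0.35. Ctcf, the insulator protein that binds the protocadherin promoters, lay between 49.1 and 132 CPM in every batch. Stag1, a cohesin subunit with the most UMI of the list in all (1159, against 1156 for the DNA methyltransferase Dnmt3a), lay between 64.7 and 254. Smchd1, a silencing factor, ranged from 49.1 in batch 1 to 557 in batch 6, and Dnmt3b had 8 UMI in all.

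Of the 21 protein partners and processing enzymes, all were tested and 0 passed, with a median of 0.12. The most abundant was Nlgn1, a postsynaptic adhesion protein, with 281 to 899 CPM, and the protease Adam10 had 280 UMI in all and none in batch 5. Of the 11 flanking or interposed genes, 10 were in the table, 8 had a UMI and 5 were tested, with 0 passing and a median of -0.77. Rell2 and Fchsd1, whose counts are equal in every cell, both had this value, so the median rests on a duplicated count. Zmat2 was the most abundant with 501 UMI. Taf7, which lies between the beta and gamma clusters on the minus strand, had 36 UMI, all in batch 8. Of the 13 non-clustered protocadherins, 12 were in the table and 8 tested, with 0 passing the adjusted threshold. At an unadjusted p under 0.05 (edgeR) there were 3, against 618 of all 9681 genes tested (6.38%). The 3 were Pcdh8 (log2 fold change 3.35 ± 0.78, adjusted p = 0.582), Pcdh19 (3.92 ± 1.14, adjusted p = 0.590) and Pcdh17 (2.11 ± 0.86, adjusted p = 0.724), by edgeR and all higher in ChC. Pcdh9, the most abundant of the list with 5148 UMI, lay between 299.8 and 2070.3 CPM in every batch. Pcdh7, Pcdh11x, Pcdh15 and Pcdh17 also had UMI in every batch. Pcdh8 (2239 UMI) and Pcdh19 (1602 UMI) were at 0 in batch 6, and Pcdh10 (427 UMI) was at 0 in batch 1. Beta genes held far fewer UMI, so presence in every batch does not set the 2 families apart.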

How the data were processed

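The authors aligned poly(A)-primed reads of hand-picked cells, amplified in 2 rounds, to mm9 with Bowtie 0.12.7, counted reads with the same gene and varietal tag once, and deposited these counts per transcript and cell without normalization. Use of strand and introns in counting is not given in the sources used here. The deposited table has 27207 transcript rows and 128 cell columns.

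Cell totals used the row with the most UMI of each gene name. Levels are CPM of a cell or batch (UMI per 1000000). Gene numbers at 10000 UMI are expected values over draws without replacement, and gene sets for the overlap were drawn once. Alpha and gamma rows were not summed; intervals are differences between neighboring rows. Groups were compared by two-sided exact permutation tests over animals, which cannot give a p under 0.333 (0.0286 over batches), and by edgeR 4.0.16 (TMM, filter on low counts, Benjamini-Hochberg, threshold 0.05), with DESeq2 1.42.0 as an alternative, in R 4.3.3 and Python 3.11.15. Scripts were tested on simulated data. Named were the 5 beta genes with the highest and 3 with the lowest nonzero mean level, the C-type members, rows most often off the shared count, members past the threshold, beta genes tested, and of each list the gene with the most UMI; others were chosen after their values were seen. Members and lists were chosen with earlier results of these data known.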

Additional observations from a re-analysis of the deposited data

Results flagged for a closer look

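Of 50 sets of 4 batches of a group that varied, 20 had 1 batch standing apart from the other 3. Alpha and gamma intervals with fewer than 10 UMI in all were not among these sets. A set with 3 batches at 0 always counts as standing apart, which holds for 14 of the 20, so the number cannot be compared with chance. All 20 were levels of single beta genes or of alpha and gamma intervals, in CPM of the batch. In ChC batch 1 these were Pcdhb14 at 330.3 and the Pcdhga5 interval at 51.3. In ChC batch 3 they were Pcdhb17 at 43.5, Pcdhb7 at 20.3, Pcdhb12 at 16.3, Pcdhb18 at 1.63, the Pcdhgc4 interval at 40.6 and the Pcdhga8 interval at 5.28. In ChC batch 4 they were Pcdhb13 at 27.6, Pcdhb3 at 21.4, Pcdhb5 at 7.12 and the Pcdhgb5 interval at 42.7.

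Among Pv batches, batch 6 stood apart for Pcdhb7 at 118 and the Pcdhgb7 interval at 34.8, and batch 8 for Pcdhb18 at 27.6. Batch 7 stood apart for Pcdhb11 at 9.48, Pcdhb15 at 6.32, and the Pcdhgc4, Pcdhac1 and Pcdhga5 intervals at 56.9, 15.8 and 3.16. Pcdhb18 in batch 3, and Pcdhb11, Pcdhb15 and the Pcdhac1 and Pcdhga5 intervals in batch 7, rest on 5 UMI or fewer. Summed alpha, beta and gamma levels, the number of beta genes at 10000 UMI and the depth per cell gave no such batch.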

How the results depend on the processing

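The differences in beta genes held (16 alternatives, 0.118 to 1.27, 1 of them the same cells as reported), beta CPM (12, 3.84 to 194) and gamma level (12, 19.3 without batch 8 to 119.5 without batch 7) stayed positive, none with p under 0.05, which 2 against 2 animals cannot give. The alpha difference turned from 32.97 to -18.4 with summed UMI over the summed total. Without Pcdha4-g, a choice made after seeing the data, it was -179 over animals and -178 over batches. With Pcdha4-g kept and 1 batch left out it ranged from -65.2 (without batch 1) to 131 and was -31.7 without batch 7. The overlap difference turned from -0.0825 to 0.286 at 5000 UMI, 0.0746 at 2 UMI or more and 0.2199 at 3 UMI or more without thinning, and without 1 batch ranged from -0.292 to 0.151, positive without batch 2 (0.127) or batch 6 (0.151). The cause was not tested. The difference in the share of the leading gene ranged from -57.8 to -5.60, but in all alternatives except 5 beta UMI or more Pv is 1 cell at 100%, so it could not be positive; it had no value at 20 beta UMI or more or without batch 6, which leave no Pv cell.

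Members called were 0 in all fits except 1 without animal 2 (range over animals left out 0 to 1). Calls over all genes were 0 in the reported fit, 158 with DESeq2, 84 without a filter, 6 with batches as samples, and 14 to 96 with 1 animal left out, where the lone animal of a group is assumed to vary like the others. The fold change of Pcdhb12 ranged from -6.11 (without animal 2) to 6.38 (without animal 4) and was 0.34 without animal 1. The beta spread (0.739) rests on 2 pairs of gene and batch, so leaving out batches 2 or 4 to 8 could not move it; the other alternatives gave 0.699 to 0.774, 1 of them a minimum of 10 UMI added after seeing the data. Equal alpha rows rose from 79.7% to 90.03% within 1 UMI of the shared count, and equal gamma rows fell to 59.5% in cells with at least 10 gamma UMI. All beta values rest on few UMI: 5 batches held under 100 beta UMI and 3 held 8 or fewer.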

Other observations

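The Pcdha4-g row gives a lower bound on tags of the locus outside the member rows, computed after its values were seen. In 38 cells its UMI exceeded the Pcdha4, beta, Taf7 and highest gamma counts together, by 108 UMI in all, so at least these lay between the member rows.

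Pcdhb20 was the beta gene found in the most batches, with UMI in both batches of animal 1 (4 in each) and in batches 5 and 8 (1 in each), and it was the only beta gene with UMI in batches 2 and 5.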
